A study of Mus musculus with 18 samples.

Results

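The 30 genes described here are macrophage and monocyte genes of the skin, taken by symbol from the deposited expression table of 55357 genes. They were Spi1, Maf and Csf1r as lineage regulators; Cd68, Adgre1, Itgam, Lyz2, Aif1, Ctss, Laptm5 and Ly86 as general and lysosomal genes; Fcgr1, Fcgr2b, Fcgr3, Fcer1g, Tyrobp and Trem2 as Fc receptors and signalling adaptors. The complement genes were C1qa, C1qb and C1qc, and the genes of resident dermal macrophages were Mrc1, Cd163, Lyve1, Folr2, F13a1, Ms4a7 and Clec10a. The monocyte and recruitment receptors were Ccr2, Cx3cr1 and Cd14. All 30 symbols had a row. In 29 of them at least 6 libraries held 10 normalized counts or more, the level required for testing.

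The study measured RNA of whole back skin from FVB mice aged 6 months, with 1 library per mouse and 6 mice in each of 3 groups. WT mice are labelled wild type. N-IKKa mice expressed exogenous IKKα in the nucleus of keratinocytes, and C-IKKa mice expressed it in the keratinocyte cytoplasm. The question was how the site of IKKα, a kinase of the NF-kB pathway, alters skin. The labels name keratinocytes as the cells with the transgene, so macrophages were not its stated target, and the labels give neither the promoter nor the number of founder lines. No cells were sorted, and the labelled "skin cells" are all cells of the sample.

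Macrophages of the dermis take up debris, microbes and immune complexes, and they are renewed partly by monocytes that leave the blood through CCR2. The growth factors CSF1 and IL-34 keep them alive through CSF1R, and IL-34 is made largely by keratinocytes in the epidermis. PU.1, encoded by Spi1, opens much of the myeloid gene programme by binding a purine-rich Ets motif, and skin macrophages are known to accompany the hair cycle.

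The promoters of the members were read for the letters of Ets and MAF sites. Any relation of these sites to the low values described further on was not tested. RefSeq promoters of build GRCm38.p6, from 250 bases before to 50 bases after the transcription start, were found for 21 of the 30 members (25 promoters), and not for Spi1, Maf, Csf1r, Adgre1, Tyrobp, C1qa, Lyve1, Clec10a and Cd14. The Ets core AGGAAGT, searched on both strands, lay in the promoter of 8 of these 21 genes (38.1%) and in 10.7% of 27025 genes in the same table. The longer PU.1 core GAGGAAGT, which contains the shorter one, lay in 3 of 21 (14.3%) against 3.69% of genes. The MAF core site TGCTGAC lay in 1 of 21 (4.76%) against 5.28%. These are matches of letters, not measured binding. The windows below hold the shorter core in capitals, read 5′ to 3′ on the strand of the gene, so a core on the other strand appears as ACTTCCT. They are shown for the complement, lysozyme, Fc receptor and resident macrophage genes whose core lay wholly before the start.
C1qb, chr4:136886220-136886279, minus strand: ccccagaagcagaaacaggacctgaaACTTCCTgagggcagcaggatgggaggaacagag
C1qc, chr4:136893076-136893135, minus strand: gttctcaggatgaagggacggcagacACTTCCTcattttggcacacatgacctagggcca
Lyz2, chr10:117282339-117282398, minus strand: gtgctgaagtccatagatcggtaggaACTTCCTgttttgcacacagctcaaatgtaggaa
Fcgr1, chr3:96293997-96294056, minus strand: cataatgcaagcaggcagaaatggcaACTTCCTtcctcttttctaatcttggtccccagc
Mrc1, chr2:14229177-14229236, plus strand: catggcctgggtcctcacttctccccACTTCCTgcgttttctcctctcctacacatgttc
F13a1, chr13:37049216-37049275, minus strand: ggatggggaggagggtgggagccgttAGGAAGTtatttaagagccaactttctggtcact
Folr2, chr7:101857239-101857298, minus strand: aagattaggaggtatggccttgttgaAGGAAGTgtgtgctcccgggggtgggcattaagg
The C1qc window holds the longer core, since the base that follows ACTTCCT there is C. Folr2 had a further match 137 bases before its start, and F13a1 one just after its start.

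Counted reads came to 11.1 to 12.6 M per WT library, 12.0 to 14.6 M per N-IKKa library and 12.6 to 15.7 M per C-IKKa library. The members together took 0.106% to 0.284% of the reads. Hair shaft and inner root sheath genes split the libraries: their mean log2 value was 9.97 to 12.0 in WT 1, WT 4, N-IKKa 8, N-IKKa 9, N-IKKa 11 and C-IKKa 14, and 2.21 to 5.74 in the other 12. All 6 of these growing-hair samples were among the 10 libraries with under 500 normalized counts of the Y-linked gene Ddx3y, which were read as female. N-IKKa thus holds 3 growing-hair samples, WT 2 and C-IKKa 1. WT 1 also stood apart in neutrophil genes. S100a9, a calcium-binding protein of neutrophils, stood at 1072 normalized counts there and at 8.31 to 55.1 in the other 17 libraries, and the receptor Cxcr2 at 365 against at most 81.7. The neutrophil-specific marker Ly6g was at 5.04 normalized counts in WT 1 and at 0 in the others. That value is low, since 3 reads of WT 1 are 3.02 normalized counts. The neutrophil marker Ngp did not stand apart, at 5.04 in WT 1 and 0 to 8.55 in the other 17. The genotype tests of the members described in full are therefore given for all 18 libraries and also without the growing-hair samples.

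The label of the list was borne out by its defining genes in every library but for 1 gene: Csf1r was at 360.0 normalized counts or more, Adgre1 at 114 or more and Cd68 at 146 or more. Itgam, the CD11b integrin chain, was listed at 0 in all 18 libraries, where a count of 0 allows up to 3 reads or 2.45 to 3.61 normalized counts. In the annotation of build GRCm38, 68.7% of the exon length of Itgam overlaps Gm49368 on the same strand, and Gm49368 itself held 0 to 21.2 normalized counts. The listed 0 was therefore not read as absence of the transcript, and Itgam entered no test. Of Folr2, 63.1% of the exon length overlaps the antisense gene Gm10602, and of Csf1r, 15.1% overlaps Hmgxb3 on the other strand. The strand setting of the counting is not given in the sources used here, so reads of these overlaps cannot be assigned to 1 gene.

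**Figure D1:**
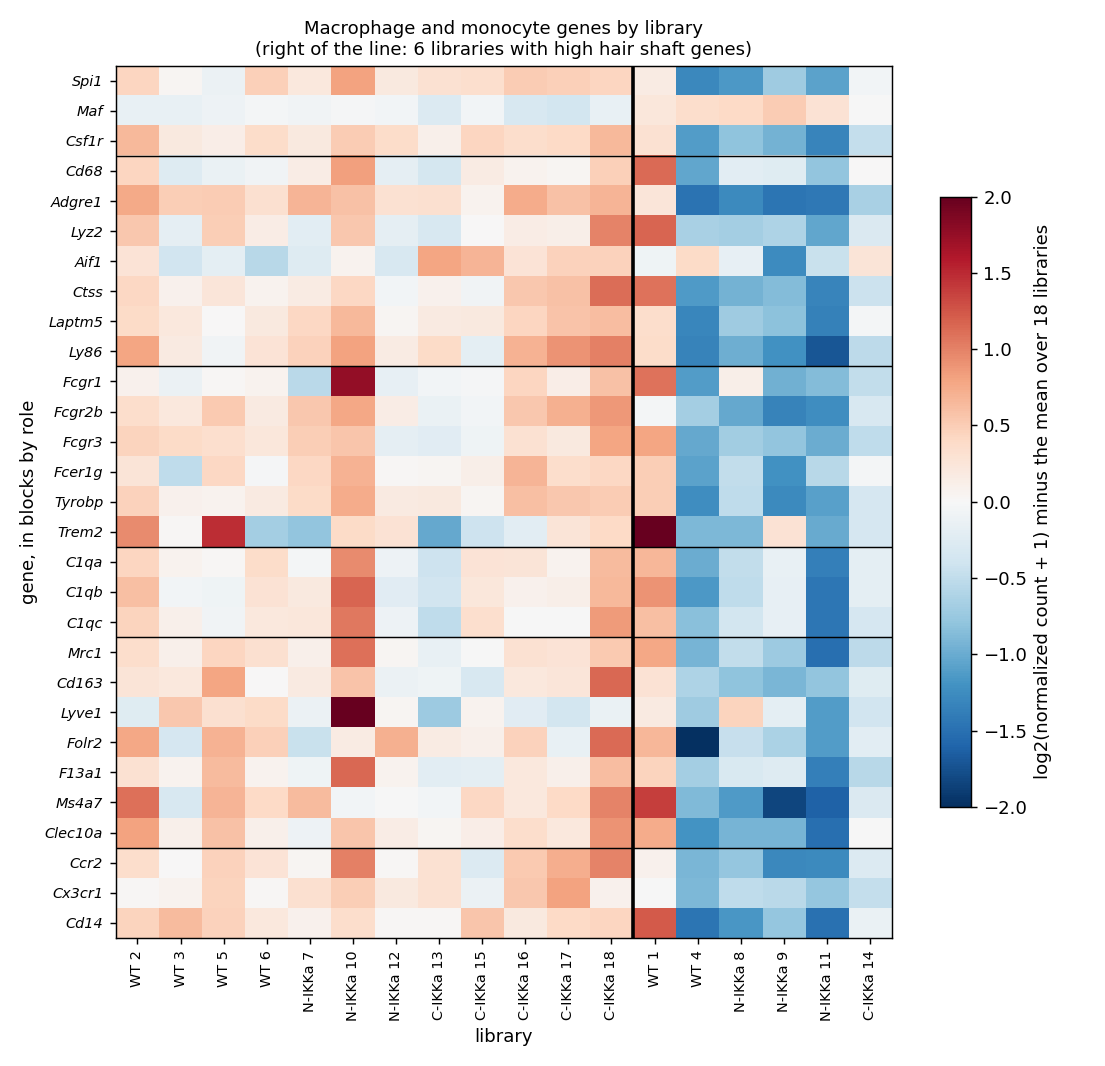
Levels of the 29 tested members in each library, as log2(normalized count + 1) minus the gene's mean over the 18 libraries (colour scale from -2 to 2), with libraries ordered by growing-hair state and genotype. Most members, Maf not among them, were low in WT 4 and in N-IKKa 8, 9 and 11, and high in N-IKKa 10, C-IKKa 18 and WT 1.

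Neither transgene changed any macrophage or monocyte gene past the threshold. By limma, 0 of 29 members were called in C-IKKa against WT, where 0.345% of 17667 genes were called. In N-IKKa against WT the count was again 0, beside 0.00566% of all genes, and in N-IKKa against C-IKKa it was 0 beside 0.43%. At an unadjusted p below 0.05 there were 1 member in C-IKKa against WT (5.73% of all genes), 1 in N-IKKa against WT (4.14%) and 3 between the transgenic groups (11.7%). By edgeR 0 members were called in all 3 comparisons (0.311%, 0.00566% and 0.34% of all genes), and by DESeq2 0, 0 and 1 (0.855%, 0.0113% and 1.06%). Groups did not overlap for 0 members in C-IKKa against WT (0.985% of all genes) and 0 in N-IKKa against WT (0.125%). Between the transgenic groups 1 member did not overlap (1.05%). Both transgenic groups were set against the same WT mice, so their values are not independent. In whole skin, fewer macrophages and less RNA per macrophage cannot be told apart. Standard errors of the log2 fold changes ran from 0.12 for Maf to 0.48 for Trem2.

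Signs of the fold changes were then counted. In C-IKKa against WT, 17 of 29 log2 fold changes were above 0 and the median was 0.07, with 50% of all genes above 0. In N-IKKa against WT, 2 of 29 were above 0 with a median of -0.34, and 51.2% of all genes were above 0. That median was -0.61 when WT 4 was left out and -0.18 when N-IKKa 11 was. Against C-IKKa, 2 of 29 were again above 0 in N-IKKa, with a median of -0.47, beside 50.9% of all genes. Without the 6 growing-hair samples the medians were -0.04, 0.08 and 0.04, with 13, 20 and 16 members above 0 and 0 called in each comparison (0.923%, 0.0113% and 0.289% of all genes called). Above 0 among all genes were then 51.1%, 53.3% and 51.3%. With sex added as a covariate in these 12 libraries, the medians were 0.12, 0.18 and 0.01. Members above 0 were then 24, 22 and 16, beside 50.8%, 53.3% and 51.2% of all genes. The sign of the C-IKKa median against WT thus depended on whether sex was in the fit. With the mean of the hair list as a covariate in place of leaving samples out, the medians were -0.01, -0.26 and -0.29.

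**Figure D2:**
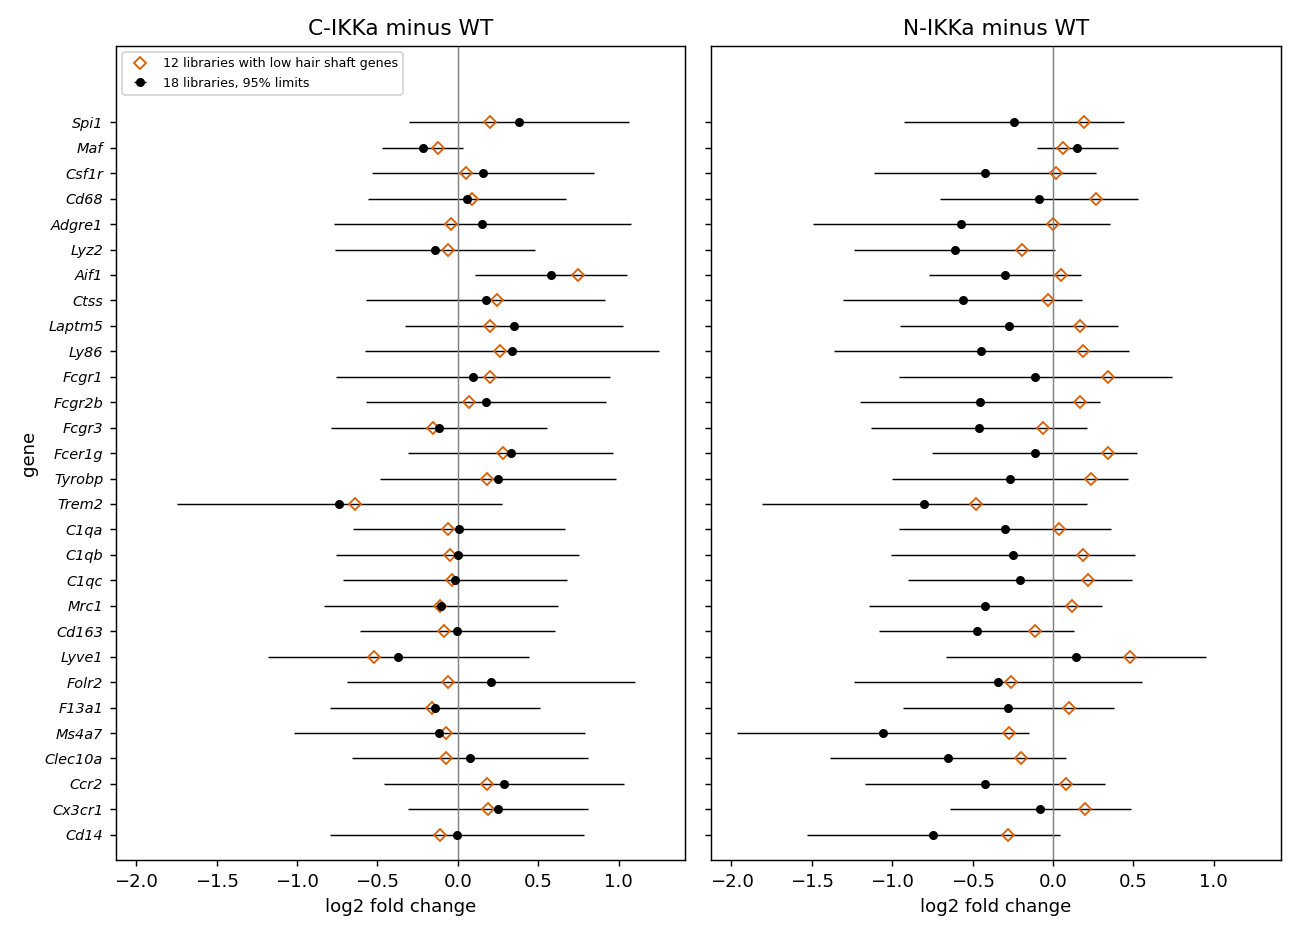
Log2 fold changes of the 29 tested members in C-IKKa and in N-IKKa against WT. Filled points are limma values from all 18 libraries with 95% limits, and diamonds are values from the 12 libraries with low hair shaft genes. In N-IKKa, 27 filled points lie below 0 while 20 diamonds lie above 0.

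Among the lineage regulators, Spi1 and Csf1r followed the growing-hair samples downward and Maf went the other way. Spi1 (ENSMUSG00000002111.9), encoding PU.1, was at 143 to 487 normalized counts in WT (median 374), 157 to 611 in N-IKKa (median 305) and 336 to 496 in C-IKKa (median 456). The lowest library of each group was a growing-hair sample, and the groups overlapped. Its log2 fold change was 0.38 (SE 0.33) in C-IKKa and -0.24 (SE 0.33) in N-IKKa against WT, with limma adjusted p values of 0.985 and 0.892. Among the 12 libraries with low hair genes the values were 0.20 and 0.19.

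Maf (ENSMUSG00000055435.7) encodes the transcription factor c-MAF, which sustains resident macrophages and is also made by other cells. It was at 4560.1 to 6484 normalized counts in WT (median 4845), 4821 to 7198 in N-IKKa (median 5608) and 3949.9 to 5066 in C-IKKa (median 4378). The highest values were those of the growing-hair samples. N-IKKa exceeded C-IKKa by 0.37 on the log2 scale (SE 0.12, 95% limits 0.12 to 0.63, limma adjusted p = 0.295). With the growing-hair samples left out that difference was 0.19 (limma adjusted p = 0.67). Csf1r (ENSMUSG00000024621.17), the receptor for CSF1 and IL-34, had a median normalized count of 1069 for WT, 769 for N-IKKa and 1170.5 for C-IKKa and overlapped between all groups.

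Aif1 came nearest to a difference by genotype. Aif1 (ENSMUSG00000024397.15) encodes the actin-binding protein IBA1 of macrophages and microglia. It was at 25.3 to 49.1 normalized counts in WT (median 34.0), 15.1 to 39.6 in N-IKKa (median 30.6) and 44.9 to 65.9 in C-IKKa (median 52.0). All 6 C-IKKa libraries lay above all 6 N-IKKa libraries, as in 0.736% of all genes in that direction, and they overlapped with WT through 2 WT mice. N-IKKa was below C-IKKa by -0.88 on the log2 scale (SE 0.22, 95% limits -1.35 to -0.41, limma adjusted p = 0.126). DESeq2 called this difference (log2 fold change -0.86, adjusted p = 0.0151) and edgeR did not (adjusted p = 0.143).

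Against WT, Aif1 in C-IKKa differed by 0.58 (SE 0.22, limma adjusted p = 0.672). Among the 12 libraries with low hair shaft genes the value was 0.75, the 5 C-IKKa libraries (45.7 to 65.9) lay just above the 4 WT libraries (25.3 to 45.4), and the limma adjusted p was 0.16. Such separation held for 2.54% of all genes in that direction. N-IKKa against C-IKKa gave -0.70 there, again without overlap (2.81% of all genes in that direction), with a limma adjusted p of 0.476. These levels are low, so counting error is a sizeable part of the spread.

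**Figure D3:**
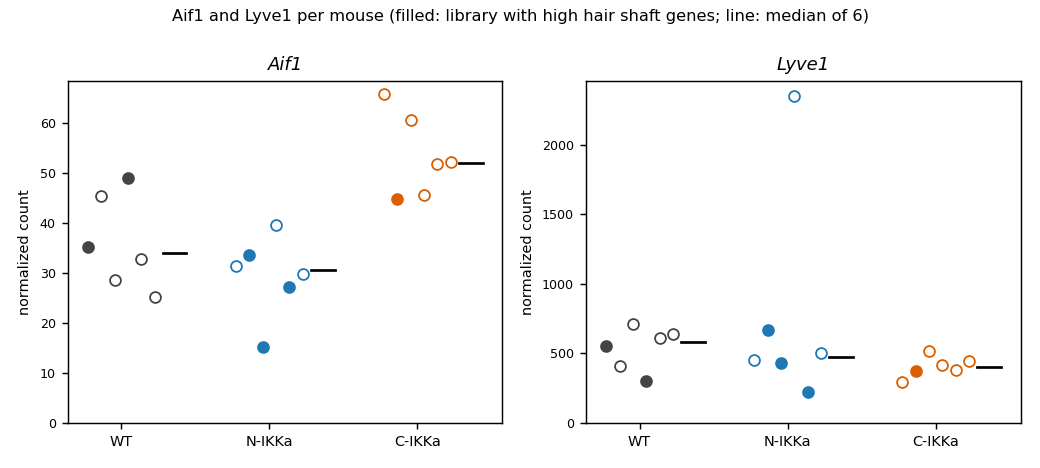
Normalized counts of Aif1 (left) and Lyve1 (right) in each mouse by genotype, filled for growing-hair samples, with a line at the median of 6. The C-IKKa points of Aif1, 44.9 to 65.9, lie above all N-IKKa points, and 1 N-IKKa mouse stands at 2353 for Lyve1.

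Ctss (ENSMUSG00000038642.11), encoding cathepsin S, a protease of antigen processing, was at 187 to 879 normalized counts in WT (median 463), 165 to 548 in N-IKKa (median 311) and 307 to 893 in C-IKKa (median 517). The groups overlapped, with WT 1 and C-IKKa 18 at the top. N-IKKa against C-IKKa was -0.74 (SE 0.35, limma adjusted p = 0.432), and -0.27 without the growing-hair samples (SE 0.21, limma adjusted p = 0.899). Of the 7 tested general and lysosomal genes, all 7 had a value below 0 in N-IKKa against WT (median -0.45) and 6 had one above 0 in C-IKKa against WT (median 0.17), none called. Without the growing-hair samples 5 of the 7 were above 0 in N-IKKa (median 0.05).

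The other members of this group are given by their median normalized counts, first for WT, then N-IKKa, then C-IKKa. The lysosomal protein gene Cd68 stood at 280.5, 262 and 314. Adgre1, which encodes the F4/80 antigen, stood at 426, 266 and 442. Lyz2, which encodes lysozyme M and shares 5.96% of its 75-base words with Lyz1, stood at 3551, 2149.7 and 2961. Laptm5, a lysosomal membrane protein of blood cells, stood at 643, 456 and 694, and Ly86, the MD-1 partner of the receptor RP105, at 119, 83.1 and 149. In each of these genes N-IKKa had the lowest median, and in each the groups overlapped.

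Of the Fc receptors and adaptors, 6 of 6 had values below 0 in N-IKKa against WT (median -0.36) and 4 of 6 above 0 in C-IKKa against WT (median 0.13). Among the 12 libraries with low hair genes 4 of the 6 were above 0 in N-IKKa against WT (median 0.20). Fcgr2b (ENSMUSG00000026656.16), the inhibitory receptor for IgG, was at 594 to 1368 normalized counts in WT (median 1087), 375 to 1621 in N-IKKa (median 757) and 759.6 to 1731 in C-IKKa (median 1149). N-IKKa held both the lowest and the next to highest library of the 18. Against WT its log2 fold change was -0.45 in N-IKKa (SE 0.36, limma adjusted p = 0.88) and 0.17 in C-IKKa (SE 0.36, limma adjusted p = 0.987). With the growing-hair samples left out the values were 0.17 and 0.07.

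Trem2 (ENSMUSG00000023992.15), a lipid-sensing receptor that signals through Tyrobp, was at 10.3 to 95.8 normalized counts in WT (median 29.8), 9.39 to 26.4 in N-IKKa (median 17.8) and 9.27 to 26.6 in C-IKKa (median 16.3). WT 1 held the 95.8 and WT 5 the next value, 57.3, and the other 16 libraries lay below these 2. N-IKKa differed from WT by a log2 fold change of -0.80 (SE 0.48, limma adjusted p = 0.88) and C-IKKa by -0.74 (SE 0.48, limma adjusted p = 0.985). Without the growing-hair samples, WT 1 among them, these were -0.48 and -0.64. Its level is near the lower bound for testing, so it is known with little precision.

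The activating receptor Fcgr1 had median normalized counts of 65.2, 49.9 and 65.9 in the same order, and Fcgr3, another receptor for IgG, 304, 177 and 247. The shared signalling chain Fcer1g, used also by mast cells, had medians of 173, 137 and 188, and the adaptor Tyrobp 96.4, 80.5 and 113. Fcgr2b and Fcgr3 share 2.71% and 5.42% of their 75-base words, so a small part of their reads may have been split. In all 4 genes the 3 groups overlapped.

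The C1q genes encode the 3 chains of the complement recognition protein, which tissue macrophages make in large amounts, and they lie next to each other on chromosome 4. C1qa (ENSMUSG00000036887.6) was at 577 to 1802 normalized counts in WT (median 1339.7), 443 to 2194 in N-IKKa (median 1047) and 856 to 1765 in C-IKKa (median 1288). C1qb (ENSMUSG00000036905.9) was at 322 to 1334 in WT (median 782), 262 to 1600.1 in N-IKKa (median 623) and 546 to 1122 in C-IKKa (median 766). N-IKKa 10 held the highest and N-IKKa 11 the lowest value of both genes, so the N-IKKa range contained the others.

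For C1qa, C-IKKa differed from WT by a log2 fold change of 0.01 (SE 0.31, 95% limits -0.65 to 0.67, limma adjusted p = 0.999) and N-IKKa by -0.30 (SE 0.31, limma adjusted p = 0.88). For C1qb the values were -0.00 (SE 0.36) and -0.25 (SE 0.36, limma adjusted p = 0.898). Among the 12 libraries with low hair genes N-IKKa against WT gave 0.04 for C1qa and 0.19 for C1qb, and C-IKKa against WT -0.06 and -0.05. C1qc had medians of 825, 674 and 736 normalized counts.

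**Figure D4:**
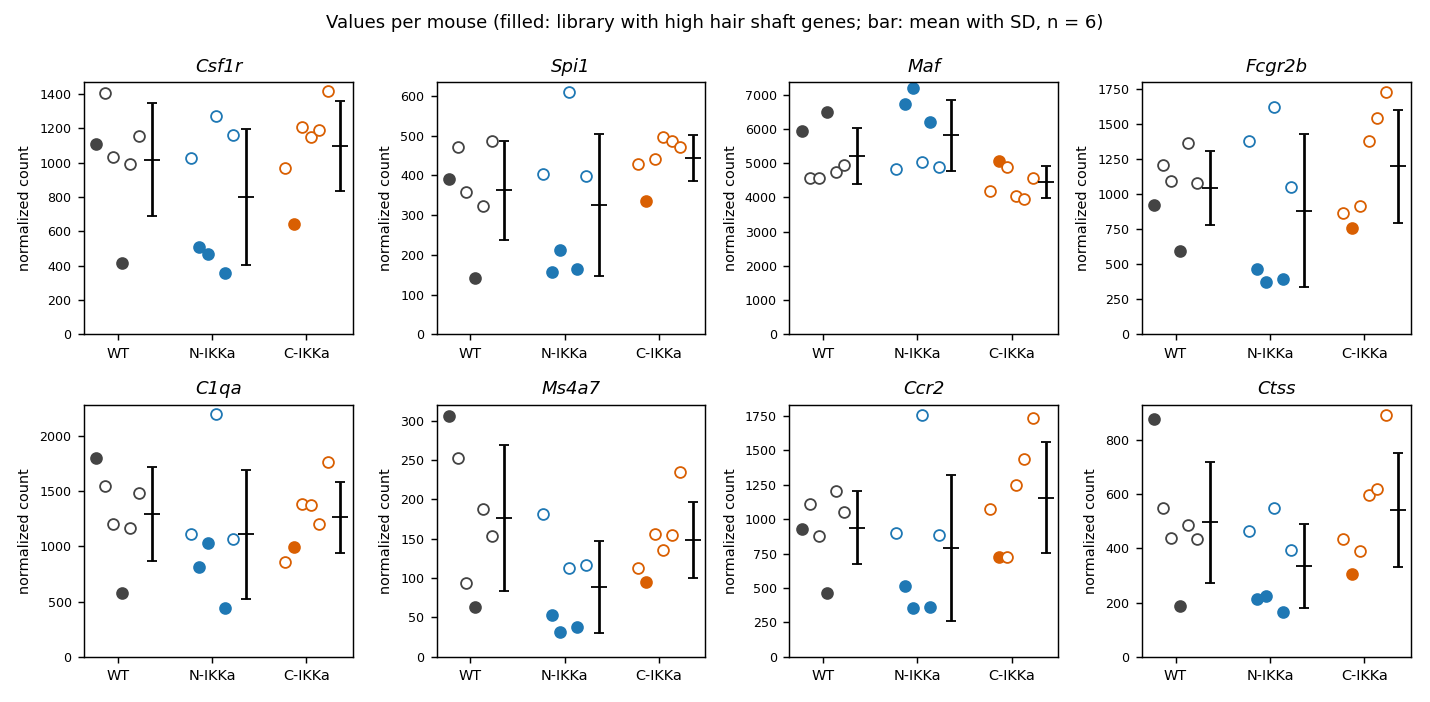
Normalized counts of 8 members in each mouse by genotype, filled for growing-hair samples, with the mean and SD of 6 mice at the right of each group. Filled points lie mostly at the low end of their group, except WT 1, and for Maf they lie at the top.

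Among the genes of resident dermal macrophages, Ms4a7 and Clec10a had the smallest p values. Ms4a7 (ENSMUSG00000024672.12), a membrane protein of mature macrophages, was at 62.8 to 306 normalized counts in WT (median 171), 32.2 to 182 in N-IKKa (median 82.9) and 95.5 to 235 in C-IKKa (median 145). The 3 growing-hair N-IKKa mice were below every WT and C-IKKa library, and the others overlapped. The log2 fold change of N-IKKa against WT was -1.06 (SE 0.43, limma adjusted p = 0.88) and against C-IKKa -0.94 (SE 0.43, limma adjusted p = 0.428). With the growing-hair samples left out these were -0.27 (SE 0.31, limma adjusted p = 0.914) and -0.20 (SE 0.30, limma adjusted p = 0.963).

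Clec10a (ENSMUSG00000000318.17), a galactose-binding lectin of dermal macrophages and dendritic cells, was at 204 to 822 normalized counts in WT (median 604), 164 to 687 in N-IKKa (median 340.4) and 463 to 872 in C-IKKa (median 527). C-IKKa mice spanned a narrower range than the other groups and lay within that of WT but for C-IKKa 18. N-IKKa against C-IKKa was -0.73 (SE 0.35, limma adjusted p = 0.43), and -0.13 without the growing-hair samples (SE 0.21, limma adjusted p = 0.971). It shares 4.44% of its 75-base words with its neighbour Mgl2.

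Mrc1, the mannose receptor, had median normalized counts of 2372 for WT, 1636 for N-IKKa and 2067 for C-IKKa. Cd163, the scavenger receptor for haemoglobin, had 1740.2, 1108 and 1544, and the coagulation factor gene F13a1 had 1081, 838 and 925. Folr2, a folate receptor, was at 12.6 to 118 over all libraries. Of the 7 genes in this group 6 had values below 0 in N-IKKa against WT (median -0.42), and 5 had values below 0 in C-IKKa against WT (median -0.10). Without the growing-hair samples 4 were below 0 in N-IKKa (median -0.11) and 7 in C-IKKa (median -0.09). Neither count was adjusted for sex.

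Lyve1, a hyaluronan receptor shared by perivascular macrophages and lymphatic endothelium, had 1 mouse well above the others. N-IKKa 10 held 2353 normalized counts, and the other 17 libraries held 224 to 709.99. In N-IKKa 10 the lymphatic markers Prox1, Flt4 and Mmrn1 were at 131, 168 and 576, each inside the range of the other libraries. Of the other resident macrophage genes, Mrc1 and F13a1 were at their maximum over the 18 libraries there, at 4041 and 2089. Cd163 and Clec10a, at 2185 and 687, were below C-IKKa 18, and Folr2 and Ms4a7, at 59.8 and 113, were below the median of the 12 libraries with low hair genes. The part of lymphatic vessels in the Lyve1 value was not tested beyond these levels.

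Monocyte and recruitment receptors had positions like those of the general genes. Ccr2 (ENSMUSG00000049103.15), the receptor for CCL2 on classical monocytes, was at 462 to 1206 normalized counts in WT (median 991), 355 to 1758 in N-IKKa (median 698) and 724 to 1735 in C-IKKa (median 1162). The lowest library of each group was a growing-hair sample, and the groups overlapped. N-IKKa against C-IKKa was -0.71 (SE 0.35, limma adjusted p = 0.441) and -0.10 without the growing-hair samples. N-IKKa against WT was -0.42 and, without those samples, 0.08.

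Cd14 (ENSMUSG00000051439.8), the co-receptor that hands bacterial lipopolysaccharide to TLR4 and is also made by neutrophils, was at 52.5 to 342 normalized counts in WT (median 199), 51.1 to 186 in N-IKKa (median 117) and 133 to 214 in C-IKKa (median 179). WT 1, with its high neutrophil genes, held the 342, and WT 4 the 52.5. Its log2 fold change was -0.74 in N-IKKa (SE 0.38, limma adjusted p = 0.88) and -0.01 in C-IKKa (SE 0.38, limma adjusted p = 0.999) against WT. Among the 12 libraries with low hair genes these were -0.28 (SE 0.16, limma adjusted p = 0.784) and -0.11 (SE 0.14, limma adjusted p = 0.808). Cx3cr1, the fractalkine receptor of patrolling monocytes and resident macrophages, had medians of 126, 115 and 143.

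The growing-hair samples were where the members differed most. These samples were told apart by measured hair genes and not by a label, so the values are a description without a test. In 28 of 29 members the median of the 6 growing-hair samples was below that of the other 12, and 50.8% of all genes had a lower median there. The median difference over the members was -0.91 on the log2 scale, and over all genes -0.01. No member was lower without any overlap (5.25% of all genes were). WT 1 lay within or above the range of the other 12 in all 28. Leaving WT 1 out, 13 of 29 members were lower without overlap, beside 7.57% of all genes, and in 15 further members with a lower median other growing-hair samples overlapped as well.

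Adgre1 had the widest gap. It was at 114 to 380.0 normalized counts in the 6 growing-hair samples (median 126) and at 337 to 542 in the other 12 (median 469.9), and WT 1 held the 380.0. The remaining 5 were at 206 or lower. Ly86 followed, at 30.3 to 132 (median 47.4) against 89.0 to 205 (median 137), and Ms4a7, at 32.2 to 306 (median 58.0) against 94.1 to 252 (median 154). In both genes WT 1 was again the highest of the growing-hair samples.

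Csf1r was at 360.0 to 1107 normalized counts in the growing-hair samples (median 490.0) and 967 to 1414 in the others (median 1157). Ccr2 was at 355 to 930.4 (median 487) against 724 to 1758 (median 1091). Only WT 1 reached the range of the others in these 2 genes, and C-IKKa 14 lay just under it for Ccr2 at 723.7. The C1q genes were less separated. C1qa was at 443 to 1802 (median 905) against 856 to 2194 (median 1288), and 0 of the 3 C1q genes separated without WT 1. Small differences of medians were also those of Lyve1 (-0.25), Cd68 (-0.29) and Aif1 (-0.29).

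Maf was the exception among the 29. It was at 5066 to 7198 normalized counts in the growing-hair samples (median 6338) and at 3949.9 to 5023 in the other 12 (median 4658), without overlap, as were 8.45% of all genes in that direction. Of the 10 tested genes in a list of further myeloid transcription factors, among them Irf8, Cebpa and Cebpb, 6 had a lower median in the growing-hair samples.

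By mouse, N-IKKa 11 held the lowest value of the 18 libraries for 13 members, WT 4 for 7 and N-IKKa 9 for 7. N-IKKa 10 held the highest value for 12 members, C-IKKa 18 for 8 and WT 1 for 5. The mean log2 level of the tested members ran from 7.33 in N-IKKa 11 to 9.17 in N-IKKa 10. In C-IKKa 14, the only growing-hair C-IKKa mouse, the mean was 8.18, and in WT 4, N-IKKa 9 and N-IKKa 8 it was 7.49, 7.72 and 7.85.

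**Figure D5:**
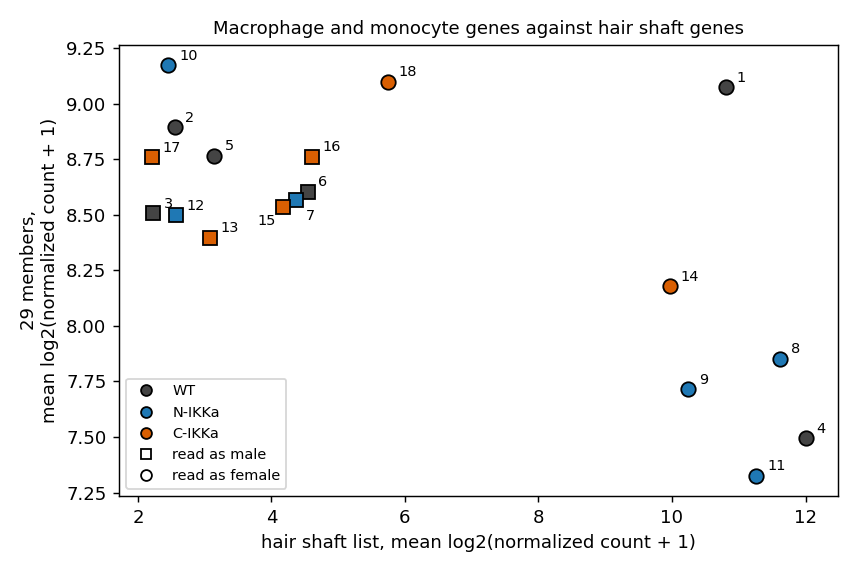
Mean log2 level of the tested members (vertical) against that of the hair genes (horizontal) for each library, coloured by genotype and labelled by replicate number, with squares for libraries read as male and circles for female. Of the 6 libraries at the right, 5 have a member mean of 8.18 or lower and WT 1 stands at 9.07, and the 12 at the left run from 8.40 to 9.17.

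Markers of most other cell types were also lower in the growing-hair samples. Of 6 general leukocyte markers 6 had a lower median there (median difference -0.95), of 11 Langerhans and dendritic cell markers 11 (-1.40), of 10 T and NK cell markers 10 (-1.30), of 6 blood endothelial markers 6 (-0.57) and of 6 fibroblast markers 6 (-2.11). Of 6 keratinocyte markers 4 were lower (-0.63), and of 6 melanocyte markers 6 were higher (3.77). Of 4 neutrophil markers 3 were higher (0.42, and 0.23 without WT 1). The summed level of the leukocyte markers was 1270 to 3209 normalized counts in the growing-hair samples and 2758 to 4674 in the others. Hair genes with keratin-associated protein genes took at most 2.87% of the reads of a library. The part of these other changes in the low values of the members was not tested. No test here sets the macrophage genes apart from those of the other skin cells.

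Sex differed with the hair state, so the 12 libraries with low hair shaft genes were also read by sex, again without a test. The 4 female mice among them were WT 2, WT 5, N-IKKa 10 and C-IKKa 18. In 28 of 29 members the median of the 4 females was above that of the 8 males, against 49.9% of all genes, with a median difference of 0.38. In 6 members (Clec10a, Cd163, Trem2, Mrc1, F13a1 and Lyz2) the 4 females lay above all 8 males, beside 1.32% of all genes. Mast cell markers were higher in the females in 6 of 6 genes, each without overlap (median difference 0.98), as were leukocyte markers in 6 of 6 (0.24) and adipocyte markers in 6 of 6 (0.29), and fibroblast markers were lower in 5 of 6 (-1.36). Their part in the difference between the sexes was not tested. Set against these 4 females, the 6 growing-hair females had a lower median in 28 of 29 members, with a median difference of -1.27. Without overlap were 4 of them (9.65% of all genes), and 23 when WT 1 was left out (13% of all genes).

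Of 83 further genes of macrophage biology, 72 could be tested. Neither transgenic group had a called gene against WT (0 and 0, beside 0.345% and 0.00566% of all genes), and 1 gene was called between them, lower in N-IKKa (0.43% of all genes). Their medians were 0.07, -0.23 and -0.29 on the log2 scale, with 43, 15 and 16 of 72 above 0 (50%, 51.2% and 50.9% of all genes). With the growing-hair samples left out they were 0.08, 0.10 and 0.01, with 43, 51 and 37 above 0 (51.1%, 53.3% and 51.3% of all genes). Of the 72, 1 gene was then called, higher in C-IKKa than in WT, a comparison in which 0.923% of all genes were called. In the growing-hair samples 60 of the 72 had a lower median (50.8% of all genes), with a median difference of -0.79.

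The called gene was Tlr2 in both cases, the Toll-like receptor for bacterial lipoproteins, which keratinocytes make as well as macrophages. It was at 82.2 to 307 normalized counts in WT (median 267), 75.7 to 285 in N-IKKa (median 151) and 327 to 626 in C-IKKa (median 518). C-IKKa lay above both other groups without overlap, as did 0.838% of all genes against WT. N-IKKa against C-IKKa was -1.72 on the log2 scale (SE 0.37, limma adjusted p = 0.0459), and without the growing-hair samples -1.02 (limma adjusted p = 0.0501). C-IKKa against WT was 1.12 (SE 0.37, limma adjusted p = 0.466), and 0.92 without those samples (SE 0.18, limma adjusted p = 0.0293). The call against N-IKKa was lost by edgeR (adjusted p = 0.0738), and by limma with sex as a covariate (adjusted p = 0.0628), with the compared groups alone (0.0632) and with a filter of 50 normalized counts (0.0575). It was kept by DESeq2 (adjusted p = 0.00206) and with the hair covariate (limma adjusted p = 0.00245), and it was kept in 5 of the 18 fits that left out 1 library. For C-IKKa against WT the limma adjusted p was 0.0409 with the hair covariate and 0.693 with sex as a covariate. In that comparison edgeR gave an adjusted p of 0.494 and DESeq2 0.179. Of the 18 limma fits that left out 1 library, 0 called Tlr2 there.

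The ligands that feed and attract these cells were measured too. Csf1 was at 618 to 1806 normalized counts in WT (median 1564), 576 to 2944 in N-IKKa (median 1169) and 1468 to 1976 in C-IKKa (median 1742). Il34 was at 418 to 1462 in WT (median 1236), 416 to 1333 in N-IKKa (median 994) and 628 to 1296 in C-IKKa (median 984). Their groups overlapped. In the growing-hair samples Il34 was at 416 to 762 against 909.5 to 1462 in the other 12, without overlap, as were 5.25% of all genes in that direction. Csf1 was at 576 to 1806 against 1477 to 2944, with WT 1 holding the 1806.

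From each list without a called gene, the 1 with the smallest p in C-IKKa against WT was read. Cx3cl1, the ligand of Cx3cr1, had a log2 fold change of 0.39 (SE 0.16, limma adjusted p = 0.724), and the cytokine gene Tnf 0.996 (SE 0.34, limma adjusted p = 0.519). The phosphatase gene Ptpn6, which damps signalling of immune receptors, gave 0.38 (SE 0.19, limma adjusted p = 0.893). The factor gene Cebpa gave 0.18 (SE 0.13) and the lectin gene Cd209d 0.56 (SE 0.36), both with a limma adjusted p of 0.985. None of these 5 passed the test. Without the growing-hair samples the values were 0.51 for Cx3cl1, 0.78 for Tnf, 0.35 for Ptpn6, 0.03 for Cebpa and 0.24 for Cd209d, none called by limma. The chemokine gene Ccl2 was listed at 0 in every library.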

How the data were processed

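Per the labels' protocols, RNA was taken with TRIzol and RNeasy MinElute columns and libraries came from a stranded mRNA kit, read paired-end on a NovaSeq. The submitters' processing notes name featureCounts and build GRCm39. Not given in the sources used here are aligner, annotation, strand setting and scaling tool. The deposited signal values are gene counts that the authors divided by 1 factor per library: dividing each value above 0 by the step of its library gave a whole number, within 0.001 reads, so reads could be recovered. A 0 allows 3 reads, or 2.45 to 3.61 normalized counts, for counting error only. The replicates are labelled as separate mice. The smallest chi-square per gene between libraries was 5.86, so no library was a copy of another.

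Values were tested as log2(normalized count + 1) for the 17667 genes with at least 10 normalized counts in at least 6 libraries. One limma trend fit (limma 3.58.1, R 4.3.3) held all 18 libraries, two-sided, with Benjamini-Hochberg adjustment over all genes and a call at an adjusted p below 0.05. Recovered reads were also tested with edgeR 4.0.16 and DESeq2 1.42.0. The code was tested on simulated data. Growing-hair samples had a hair list mean over 8, using 18 of 19 listed genes. Members were named in full if called or among the 2 smallest p values of their role group. Further lists gave their called genes or the 1 with the smallest p in C-IKKa against WT. Other genes were chosen after their values were seen (the ligands Csf1, Il34 and Ccl2, Runx1, Ptprc and other chemokines, and the lymphatic and neutrophil markers). Members and lists were chosen with earlier results of these data known. Overlaps of exons and 75-base words came from an annotation of GRCm38, an earlier build, used only for that. Other scalings, pseudocounts, filters, covariates and left-out libraries were tried.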

Additional observations from a re-analysis of the deposited data

Results flagged for a closer look

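In 11 of 87 gene and group combinations 1 mouse stood apart from the other 5 by Dixon's criterion, or 12.6 per 100. The members were measured in the same mice and are not independent, so this rate was not set against chance. In 9 of the 11 combinations WT 4, a growing-hair sample, was the low mouse of WT. There Spi1 was at 143 normalized counts (other WT mice 323 to 487), Csf1r at 416 (989.8 to 1405) and Adgre1 at 114 (380.0 to 542). Laptm5 was at 226 (559.8 to 731), Fcgr3 at 115 (278 to 408) and Tyrobp at 36.5 (92.3 to 124). Clec10a was at 204 (502 to 822), Ccr2 at 462 (878 to 1206) and Cx3cr1 at 66.2 (124 to 169). In C-IKKa, the growing-hair mouse C-IKKa 14 was low for Spi1, at 336 against 429 to 496. C-IKKa 18, a female without high hair genes, was high for Lyz2, at 5601 against 2276 to 3139.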

How the results depend on the processing

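No member was called by limma or edgeR under any setting tried, and DESeq2 called 1 member (Aif1) in N-IKKa against C-IKKa. In the growing-hair samples 0 members were lower without overlap, and 13 when WT 1 was left out. Several fold changes turned sign. For C-IKKa against WT, C1qb was 0.00133 with TMM scaling. C1qa was -0.035 by edgeR, -0.036 by DESeq2, -0.015 with sex and -0.061 with the hair list as covariate, and -0.062 without the growing-hair samples. Clec10a was -0.0226 by edgeR, -0.0236 by DESeq2, -0.0248 with the hair covariate and -0.076 without those samples. N-IKKa against WT without those samples gave Aif1 0.048, C1qa 0.037, C1qb 0.188, Ccr2 0.083, Fcgr2b 0.17 and Spi1 0.191. N-IKKa against C-IKKa gave Trem2 0.019 with the hair covariate, and C1qa 0.099, C1qb 0.239, Fcgr2b 0.102 and Trem2 0.163 without those samples. The cause was not tested.

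Leaving out 1 library gave, for C-IKKa against WT, C1qa -0.21 to 0.12, C1qb -0.25 to 0.16, Cd14 -0.35 to 0.19, Clec10a -0.20 to 0.20, Ctss -0.0799 to 0.37 and Ms4a7 -0.37 to 0.0838, mostly between leaving out WT 4 and WT 1. The members' median was -0.16 without WT 4, -0.02 without C-IKKa 18 and 0.19 without WT 1. For N-IKKa against WT it ran from -0.61 without WT 4 to -0.18 without N-IKKa 11, and for N-IKKa against C-IKKa from -0.65 without N-IKKa 10 to -0.35 without N-IKKa 9. For C1qb, N-IKKa against WT gave -0.515 to 0.00632 and N-IKKa against C-IKKa -0.51 to 0.00794, without N-IKKa 10 and 11. Trem2 gave -0.22 to 0.0805 between the transgenic groups. At an unadjusted p below 0.05, N-IKKa against WT held 11 members without WT 4 (14.5% of all genes) and 7 without N-IKKa 10 (7.28%). N-IKKa against C-IKKa then held 9 (16%) and 14 (17.4%). No paired analysis was possible because the replicate numbers run on through the groups and none is shared.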

Other observations

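Runx1, a transcription factor of blood cells that skin epithelium also makes, was at 1080 to 2525 normalized counts in the growing-hair samples and at 707 to 1388 in the other 12. Ptprc, the common leukocyte antigen CD45, was at 337 to 699.5 against 590.3 to 1165. The chemokine genes Ccl7 and Ccl8 overlapped widely, at 12.3 to 327 against 34.0 to 168 for Ccl7 and at 55.3 to 226 against 57.3 to 359 for Ccl8. Ccl21a was listed at 0 in every library. No explanation was tested for these values.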
